A study of Mus musculus with 16 samples.

Results

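The 8 costimulatory genes of the tumour necrosis factor (TNF) superfamily described here were followed through the 4 groups of a microRNA mimic experiment in mouse CD4+ T cells. They were taken from the tables by symbol, and the set was put together with earlier results of these data known, so their counts of calls describe these 8 genes. They were the receptors Tnfrsf4, Tnfrsf9, Tnfrsf18, Tnfrsf1b and Cd27, and the ligands Tnfsf8, Tnfsf11 and Tnfsf14. All 8 were found among the 23337 gene symbols of the count tables, and all 8 were among the 12952 genes that passed the filter on low counts. The cells were YFP+ CD4+ T cells of C57BL/6 mice with the genotype Dgcr8f/f Tbet-/- CD4-cre, which every group shared, the controls included. Dgcr8 encodes a partner of Drosha in microRNA processing and is deleted by a Cre recombinase driven by Cd4 regulatory sequence, and Tbet (Tbx21) is the main transcription factor of Th1 cells. Cultures received antibodies to CD3 and CD28 for 3 days with 10 U/ml of IL-4, then 2 days of rest in 20 U/ml of IL-2. A synthetic microRNA (a mimic) was transfected at 500 nM on day 1 and day 4, and it was a control mimic, miR-23a, miR-24 or miR-27a, with 4 libraries in each group. The labels used here give no age for the mice, no sequence for the control mimic and no mouse, lane or date for a library. Tests that include the replicate number of a library's title judge differences against the variation left once that number is fitted. Tests without it use all variation within the groups. Either kind of variation may be technical in part.

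TNF superfamily receptors on T cells are switched on by trimeric ligands on neighbouring cells and recruit TRAF adaptor proteins, which activate NF-kB and prolong survival and cytokine production after CD28 has given its signal. Cd27 and Tnfrsf1b are found on resting as well as stimulated T cells, whereas OX40 (Tnfrsf4), CD137 (Tnfrsf9) and GITR (Tnfrsf18) are raised by antigen receptor signals. T cells also make ligands of the family, among them CD30 ligand (Tnfsf8), RANKL (Tnfsf11) and LIGHT (Tnfsf14), which act on other T cells, dendritic cells and stromal cells. A microRNA pairs through its seed, bases 2 to 8 from its 5′ end, with sites mostly in the 3′ UTR of a messenger RNA and lowers that RNA or its translation.

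The seeds of the 3 microRNAs are shown because the sites in the 8 genes were searched from them. Since the mimics are labelled without an arm or a sequence, they were taken to be the 3p arms. The sequences are RefSeq's (GRCm38.p6), 5′ to 3′, with the seed in capitals, and the 3 genes lie together at chr8:84208563-84208583, chr8:84208875-84208896 and chr8:84208727-84208747 on the plus strand in the order printed (miR-24 has another copy on chromosome 13).
miR-23a-3p: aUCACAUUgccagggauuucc
miR-24-3p: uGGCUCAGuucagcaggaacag
miR-27a-3p: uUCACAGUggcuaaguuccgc
The letters searched for were AATGTGAA, CTGAGCCA and ACTGTGAA for the 8mer sites of miR-23a, miR-24 and miR-27a, and their first 7 bases (7mer-m8) or last 7 bases (7mer-A1). The search covered the transcript strand of the longest annotated 3′ UTR of each gene (GENCODE M21 on GRCm38, the assembly of mm10), and a 7mer inside an 8mer was counted once.

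Sites were found in 4 of the 8 genes. Tnfrsf1b, Cd27, Tnfsf8 and Tnfrsf9 had 11 sites between them, 2 for miR-23a, 4 for miR-24 and 5 for miR-27a. Tnfrsf4, Tnfrsf18, Tnfsf11 and Tnfsf14 had no match in their 3′ UTRs of 180, 360, 1131 and 1019 bases. The only 8mer among the members was a miR-24 site in Tnfrsf1b, and another miR-24 site lay 4 bases from it. Sites for the other 2 microRNAs were also present in Tnfrsf1b, so its UTR of 2324 bases is shown at 3 places, with the sites in capitals and all on the minus strand.
Tnfrsf1b, miR-24 sites, chr4:145214372-145214401: gtacaCTGAGCCctggCTGAGCCAccccac
Tnfrsf1b, miR-27a site, chr4:145214913-145214942: ccgggttaggcACTGTGAgttggaacagct
Tnfrsf1b, miR-23a site, chr4:145214159-145214188: ccacaccgtggATGTGAAcaatggctgtac
Cd27 had 1 site each for miR-24 and miR-27a in a UTR of 688 bases, on the minus strand.
Cd27, miR-24 site, chr6:125232792-125232821: aaaaaatggaaTGAGCCAccggcaggtgcc
Cd27, miR-27a site, chr6:125233199-125233228: agaaccctttcCTGTGAAtactcaacaaac
Tnfsf8 had 1 site for each microRNA in a UTR of 2799 bases, of which the miR-27a site is shown (minus strand).
Tnfsf8, miR-27a site, chr4:63832315-63832344: gattccaaatcCTGTGAActtgacagtgaa
Tnfrsf9 had 2 miR-27a sites 12 bases apart in a UTR of 1232 bases, on the plus strand.
Tnfrsf9, miR-27a sites, chr4:150945779-150945808: gcACTGTGAggtggggaacacCTGTGAAct
Such matches are common. Of the 11997 UTRs of tested genes that were searched, 25.3% held a miR-23a site of any type, 27% a miR-24 site and 29.7% a miR-27a site. Among 1823 UTRs within 20% of the length of that of Tnfrsf1b, 12.6% held an 8mer for miR-24 and 11.7% held 2 or more miR-24 sites of any type. For Tnfrsf9, 3.34% of 1734 UTRs of similar length held 2 or more miR-27a sites. A match describes letters, and binding was not measured here.

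**Figure D1:**
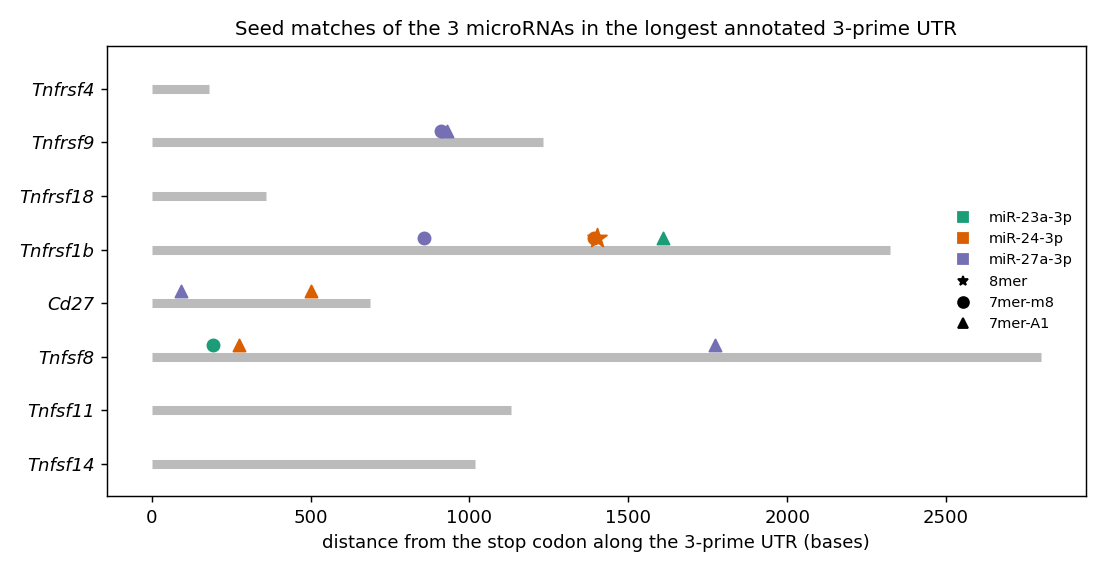
Sites of the 3 microRNAs along the 3′ UTRs of the 8 genes. The x axis is the distance in bases from the stop codon, each bar is the longest annotated 3′ UTR, and each mark is a site coloured by microRNA. Tnfrsf1b carries the only 8mer, beside another miR-24 site, and 4 of the 8 UTRs carry no site.

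Tnfrsf4 (chr4:156013843-156016612, plus strand) and Tnfrsf18 (chr4:156026164-156028895, plus) are neighbours, and Tnfrsf9 (chr4:150914562-150946102, plus), Tnfrsf1b (chr4:145213463-145246870, minus) and Tnfsf8 (chr4:63831308-63861347, minus) lie on the same chromosome. Cd27 is at chr6:125232622-125237010, Tnfsf11 at chr14:78277445-78308043 and Tnfsf14 at chr17:57189492-57194177, all on the minus strand. An exon of Tnfrsf18 overlaps the antisense gene Gm16008 in that annotation, and since the strand setting of the counts is not given in the sources used here, their reads cannot be told apart. The microRNA gene Mir8113 overlaps an exon of Cd27 on the same strand.

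The libraries differed widely in depth, and 1 library stood apart. Reads in genes ranged from 2120408 to 13714841 in 15 libraries, with 1471 to 12936 reads in the 8 genes together. Control replicate 1 held 51474 reads in genes and 27 in the 8 genes. One read there was worth 16.3 CPM (reads scaled to a common library size by edgeR's TMM), against 0.076 to 0.47 CPM elsewhere. Tnfrsf9, Cd27, Tnfsf11 and Tnfsf14 each had 1 read in that library, below a floor of 3 reads (48.8 CPM), so their value there is not a measured level. In the other 15 libraries Cd4 lay between 297 and 947 CPM and Cd3e between 534 and 1080, while Cd8a reached 6.55 CPM and Cd8b1 34.8 CPM. Tbx21 did not pass 5.2 CPM in any library, and Dgcr8 lay between 32.5 and 58.4 CPM in the 15 libraries, although counts over a whole gene do not check a deleted exon. Foxp3, the factor that defines regulatory T cells, lay between 1.41 and 8.69 CPM.

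Tnfrsf18 passed the test in none of the 6 comparisons between groups, and Tnfrsf4 passed only between mimics. Tnfrsf1b, Cd27 and Tnfsf14 fell and Tnfrsf9 rose with miR-24, while Tnfsf8 and Tnfsf11 rose and Cd27 fell with miR-27a. No member passed with miR-23a against control. Each comparison was tested with edgeR's quasi-likelihood test on all 16 libraries, with the replicate number as a block and Benjamini-Hochberg adjustment over all 12952 genes at 0.05. The calls rest on that block: without it 1 of the 15 calls remained, that of Tnfrsf1b between miR-24 and miR-27a. The labels do not say what a replicate number marks. Over 4746 well expressed genes, same-numbered libraries deviated together (all 4 correlations over 0.1) for control and miR-27a, for miR-23a and miR-24, and for miR-23a and miR-27a, and 3 of 4 correlations passed for the other 3 pairs of groups, which are control with miR-23a, control with miR-24, and miR-24 with miR-27a. Each call below is therefore given with its adjusted p without the block, and an adjusted p that stands alone is with the block. No member value that missed the threshold with the block passed without it. The comparisons with control share the same 4 control libraries.

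Counts of members are read against the share of all tested genes that passed. With miR-24 against control, 4 of the 8 genes passed, 1 higher and 3 lower, where 4.56% of tested genes passed, 2.32% higher and 2.25% lower. With miR-27a against control 3 passed, 2 higher and 1 lower, where 3.07% of tested genes passed, 1.75% higher and 1.32% lower. With miR-23a against control 0 passed, where 0.425% of tested genes did, 0.0386% higher and 0.386% lower. In that comparison 1 member, Tnfrsf9, had an unadjusted p under 0.05, as 17% of tested genes had, and DESeq2 with the block also called Tnfrsf9. Without the block, edgeR called 0 members in each comparison with control, where 0.131%, 0.849% and 0.17% of tested genes passed for miR-23a, miR-24 and miR-27a, and 0 members had an unadjusted p under 0.05 with miR-23a. In a test of any difference among the 4 groups, 5 members passed, Tnfrsf1b, Cd27, Tnfsf8, Tnfsf11 and Tnfsf14, where 9.68% of tested genes passed, and without the block 1 member passed where 1.94% of genes did.

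**Figure D2:**
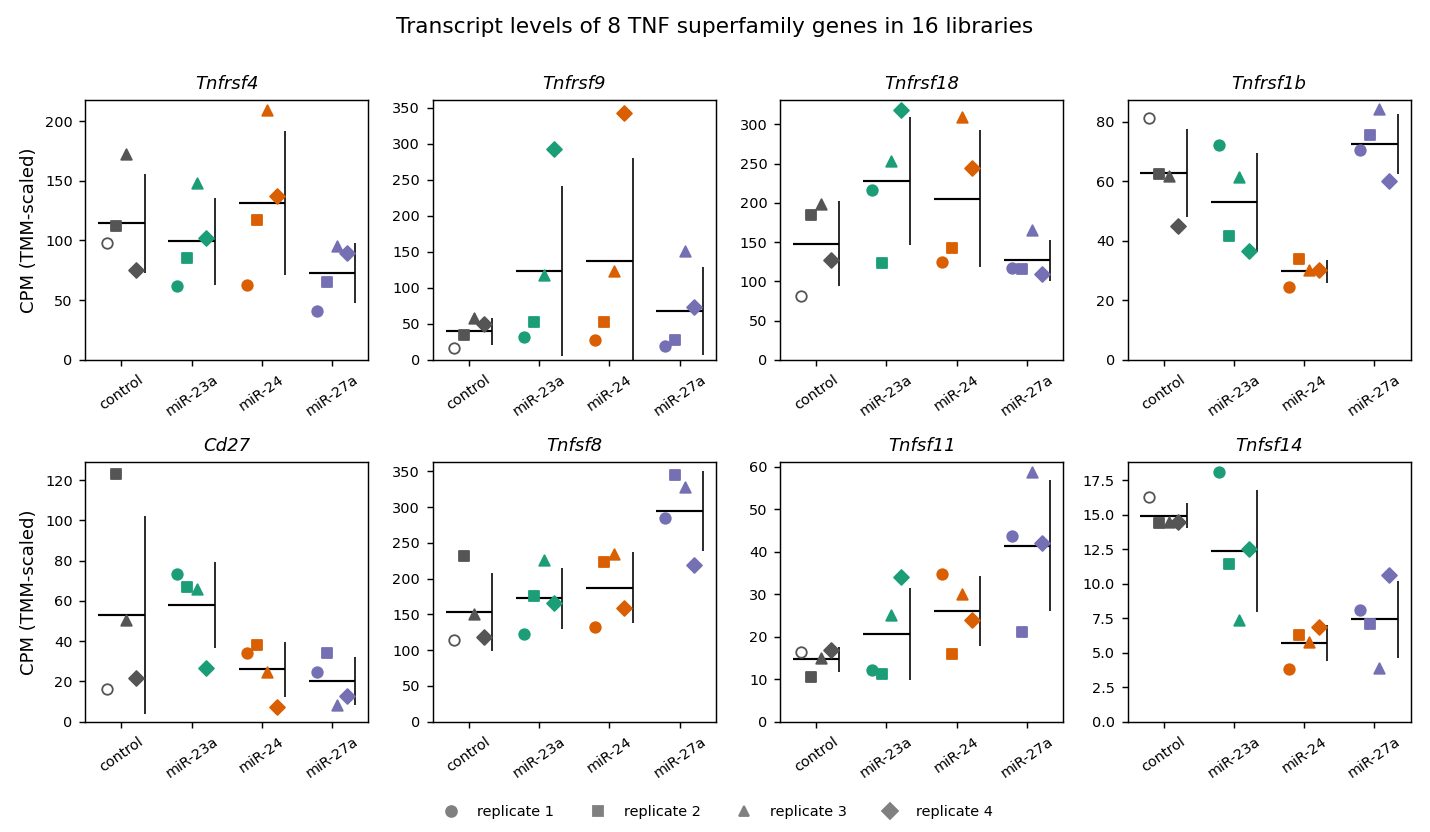
Level of each of the 8 genes in every library. The y axis is CPM on a linear scale from 0, with 4 libraries per group as points whose shape is the replicate number, the mean as a horizontal line and 1 SD on each side as a vertical line, which is clipped at 0 for Tnfrsf9 with miR-24. The open circle is control replicate 1, where 1 read is worth 16.3 CPM, and the plot shows Tnfrsf1b and Tnfsf14 lowest with miR-24, Tnfsf8 and Tnfsf11 highest with miR-27a, and the wide spread of Tnfrsf9.

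Per kilobase of exon, the GITR and OX40 messages were the most abundant of the 8 in control cells. Tnfrsf18 had a mean level of 97 CPM per kb ± 35.4 (SD, n = 4) and Tnfrsf4 of 83.6 ± 30.4, and these overlapped. Tnfsf8 followed with 40.3 CPM per kb ± 14.3. Cd27 (22.7 CPM per kb ± 21.1), Tnfrsf1b (16.4 ± 3.89) and Tnfrsf9 (14.5 ± 6.74) did not separate from one another beyond their spread. Tnfsf14 at 8.08 CPM per kb ± 0.497 and Tnfsf11 at 6.54 ± 1.31 were the lowest. These means include control replicate 1, where Cd27, Tnfrsf9, Tnfsf14 and Tnfsf11 had 1 read each. Leaving it out moved the control mean from 52.9 to 65.1 CPM for Cd27 and from 39.5 to 47.2 CPM for Tnfrsf9, before division by exon length. With miR-27a the level of Tnfsf8 was 77.3 CPM per kb ± 14.8 (SD, n = 4), within the spread of Tnfrsf18 (83.3 ± 17.2), and Tnfsf11 at 18.5 ± 6.9 lay at the level of Tnfrsf1b (19 ± 2.65).

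Tnfrsf1b, the TNF receptor of lymphocytes that carries no death domain and recruits TRAF proteins directly, was lowest with miR-24. Its levels in the 4 control libraries, in replicate order, were 81.4, 62.6, 61.9 and 45.1 CPM, the first of them from 5 reads. With miR-24 they were 24.6, 34, 30.1 and 30.2 CPM. Every miR-24 library was below every control library, and the miR-24 group had the smallest spread, with a mean of 29.7 CPM ± 3.88 (SD, n = 4) against 62.8 ± 14.8. Tnfrsf1b fell by 0.96 ± 0.22 (SE) on the log2 scale (adjusted p = 0.0209 with the block, 0.0696 without, edgeR). Levels with miR-23a were 72.1, 41.7, 61.5 and 36.5 CPM, overlapping control, and the log2 difference from control was -0.17 ± 0.23 (adjusted p = 0.721). With miR-27a they were 70.7, 75.6, 84.3 and 60 CPM, with 3 of 4 libraries above the control values of replicates 2 to 4 (log2 difference 0.30 ± 0.22, adjusted p = 0.438).

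Between the mimics, Tnfrsf1b had the smallest adjusted p of the 8 genes. It was lower with miR-24 than with miR-27a by a log2 difference of -1.27 ± 0.21, with no overlap between the groups (adjusted p = 0.00245 with the block, 0.0174 without, edgeR). This call held whichever of the 8 libraries was left out, with a largest adjusted p of 0.0216. It was also higher with miR-23a than with miR-24, by 0.79 ± 0.21 on the log2 scale, again without overlap (adjusted p = 0.034 with the block, 0.1 without). The pair of miR-24 sites printed above lies in this gene, and the same UTR holds a miR-27a site and a miR-23a site.

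Cd27, the receptor for CD70 that supports survival of naive and memory T cells, was lower with miR-24 and with miR-27a. In control libraries its levels were 16.3, 123, 50.4 and 21.5 CPM, of which the first is 1 read, and their spread was nearly as large as their mean (52.9 CPM ± 49.3, SD, n = 4). With miR-24 they were 33.9, 38.2, 24.6 and 7.25 CPM, and 3 of 4 same-numbered libraries were below their control. Although the groups overlapped, Cd27 fell by 1.26 ± 0.34 on the log2 scale (adjusted p = 0.0419 with the block, 0.358 without, edgeR). With miR-27a the levels were 24.8, 34.3, 8.06 and 12.6 CPM, also below control in 3 of 4 numbers and overlapping it. There Cd27 fell by 1.58 ± 0.35 (adjusted p = 0.0205 with the block, 0.23 without). Of 8 fits that each left out 1 library, 6 lost the miR-24 call and 4 the miR-27a call, with largest adjusted p of 0.158 and 0.107. The miR-24 call was also lost with DESeq2 size factors (adjusted p = 0.0511) and with limma voom (adjusted p = 0.0943). Control replicate 1, whose single read is the exception in both counts of numbers, was not among the libraries whose absence ended a call (adjusted p = 0.0343 and 0.0225 without it).

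With miR-23a, Cd27 was at 73.4, 67, 65.7 and 26.4 CPM, and its log2 difference from control was 0.04 ± 0.33 (adjusted p = 0.971). The miR-23a libraries lay above the same-numbered miR-24 and miR-27a libraries in all 4 numbers. Cd27 was higher with miR-23a than with miR-24 by 1.30 ± 0.32 (adjusted p = 0.0232 with the block, 0.432 without) and than with miR-27a by 1.62 ± 0.33 (adjusted p = 0.0111 with the block, 0.331 without). Between miR-24 and miR-27a the log2 difference was 0.32 ± 0.33 (adjusted p = 0.652). Its UTR holds 1 site for each of these last 2 microRNAs, both of the 7mer-A1 type, and none for miR-23a. Among 1288 UTRs of similar length, 14.8% held a miR-24 site of any type and 14.9% a miR-27a site.

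Tnfrsf9 (CD137), which is induced after stimulation and recruits TRAF proteins, varied most between libraries. Control levels were 16.3 (1 read), 34, 57.6 and 50.1 CPM. With miR-24 they were 27.1, 52.9, 123 and 343 CPM, higher than control in every same-numbered pair and overlapping it as groups. Tnfrsf9 rose by 1.42 ± 0.39 on the log2 scale (adjusted p = 0.0484 with the block, 0.426 without, edgeR). That call was lost in 6 of 8 fits that each left out 1 library, that without control replicate 1 among them, and when no filter on low counts was used (adjusted p = 0.0949) and with limma voom (adjusted p = 0.116).

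With miR-23a the Tnfrsf9 levels were 31.5, 52.8, 118 and 292 CPM, close to those of miR-24 number by number. The log2 difference from control was 1.38 ± 0.39 (adjusted p = 0.124 with the block, 0.531 without), and that between miR-23a and miR-24 was -0.04 (adjusted p = 0.978). With miR-27a the levels were 18.7, 27.2, 151 and 73.4 CPM, and the log2 difference from control was 0.63 ± 0.39 (adjusted p = 0.353). Replicate number moved Tnfrsf9 more than any mimic did: libraries numbered 3 and 4 were higher than those numbered 1 by 2.42 and 2.88 on the log2 scale in the fit. The pair of miR-27a sites is in this gene, and its difference between miR-24 and miR-27a was 0.80 (adjusted p = 0.231).

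Tnfrsf4 (OX40), which sustains effector T cells after stimulation, did not pass against control. Its control levels were 97.7 (6 reads), 112, 172 and 75 CPM. With miR-24 they were 62.7, 117, 209 and 137 CPM and with miR-27a 41, 65.3, 95.6 and 89.5 CPM. The miR-27a library was below the miR-24 library in all 4 numbers, although the groups overlapped. Tnfrsf4 was higher with miR-24 than with miR-27a by 0.79 ± 0.20 on the log2 scale (adjusted p = 0.0264 with the block, 0.317 without, edgeR). Against control, the log2 differences were 0.26 ± 0.21 with miR-24 (adjusted p = 0.528) and -0.54 ± 0.21 with miR-27a (adjusted p = 0.159), and with miR-23a, at 61.5, 85.2, 148 and 102 CPM, the value was -0.10 ± 0.21 (adjusted p = 0.845).

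Tnfrsf18 (GITR), abundant on regulatory and activated T cells, was the member that passed in none of the 6 comparisons. Its levels were 81.4 (5 reads), 185, 198 and 127 CPM in control and 216, 124, 254 and 319 CPM with miR-23a. They were 125, 142, 310 and 245 CPM with miR-24 and 117, 116, 166 and 109 CPM with miR-27a. All 4 groups overlapped. Log2 differences from control were 0.52 ± 0.27 for the miR-23a mimic (adjusted p = 0.322), 0.32 ± 0.26 for miR-24 (adjusted p = 0.531) and -0.31 ± 0.27 for miR-27a (adjusted p = 0.506). The difference between miR-23a and miR-27a was 0.83 ± 0.25 (adjusted p = 0.0877 with edgeR, 0.0408 with DESeq2, both with the block).

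Among the ligands, Tnfsf8 (CD30 ligand), which binds the receptor Tnfrsf8, was highest with miR-27a. Control levels were 114 (7 reads), 231, 151 and 118 CPM, and with miR-27a they were 285, 345, 328 and 219 CPM. Every miR-27a library was above its same-numbered control, and as groups they overlapped only where the lowest miR-27a library lay below the highest control. The mean went from 153 CPM ± 54.2 to 294 ± 56.3 (SD, n = 4 each). Tnfsf8 rose by 0.96 ± 0.20 on the log2 scale (adjusted p = 0.0142 with the block, 0.159 without, edgeR). The miR-27a match printed above is in its UTR.

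With miR-23a and miR-24 the Tnfsf8 levels stayed nearer to control. They were 122, 176, 226 and 166 CPM with miR-23a (log2 difference 0.18 ± 0.19, adjusted p = 0.646) and 132, 223, 235 and 159 CPM with miR-24 (0.28 ± 0.19, adjusted p = 0.444). Both were below miR-27a in the test: the log2 difference was -0.68 ± 0.18 for miR-24 (adjusted p = 0.0412 with the block, 0.269 without) and -0.77 ± 0.18 for miR-23a (adjusted p = 0.0265 with the block, 0.244 without).

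Tnfsf11 (RANKL), the ligand of the receptor Tnfrsf11a on dendritic cells and osteoclast precursors, was also highest with miR-27a. Control levels were 16.3 (1 read), 10.4, 14.9 and 16.9 CPM, and with miR-27a they were 43.6, 21.1, 58.6 and 42.1 CPM. No control library reached the lowest miR-27a library. The means were 14.6 CPM ± 2.94 and 41.4 ± 15.4 (SD, n = 4 each), and Tnfsf11 rose by 1.49 ± 0.30 on the log2 scale (adjusted p = 0.0136 with the block, 0.105 without, edgeR). Without control replicate 1 the value was 1.49 (adjusted p = 0.0263 with the block).

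With miR-24, Tnfsf11 was at 34.8, 15.8, 30 and 23.8 CPM, above control in all 4 numbers. The log2 difference was 0.86 ± 0.30 and did not pass with edgeR (adjusted p = 0.112), whereas DESeq2 with the block gave an adjusted p of 0.0418. With miR-23a it was at 12.2, 11.2, 25 and 33.9 CPM (0.46 ± 0.29, adjusted p = 0.428). Its level with miR-23a was lower than with miR-27a by a log2 difference of -1.03 ± 0.27 (adjusted p = 0.046 with the block, 0.302 without). The UTR of Tnfsf11 holds no site for any of the 3 microRNAs.

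Tnfsf14 (LIGHT), which binds the receptors Tnfrsf14 and Ltbr, was lower with miR-24. Control levels were 16.3 (1 read), 14.4, 14.5 and 14.5 CPM, so that control replicates 2 to 4 were almost equal. With miR-24 they were 3.84, 6.25, 5.77 and 6.85 CPM, each below every control library. The mean fell from 14.9 CPM ± 0.909 to 5.68 ± 1.3 (SD, n = 4 each), a log2 difference of -1.39 ± 0.33 (adjusted p = 0.0222 with the block, 0.0786 without, edgeR).

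The Tnfsf14 levels with miR-27a were 8.07, 7.05, 3.88 and 10.6 CPM, and these too lay below every control library. That difference, -1.10 ± 0.34 on the log2 scale, did not pass (adjusted p = 0.0777 with the block, 0.222 without). With miR-23a they were 18.1, 11.4, 7.39 and 12.5 CPM, on both sides of control (-0.34 ± 0.33, adjusted p = 0.613). The miR-23a libraries were all above the miR-24 libraries, with a log2 difference of 1.04 ± 0.31 that missed the threshold (adjusted p = 0.0575 with the block, 0.117 without). The UTR of Tnfsf14 holds no site either.

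**Figure D3:**
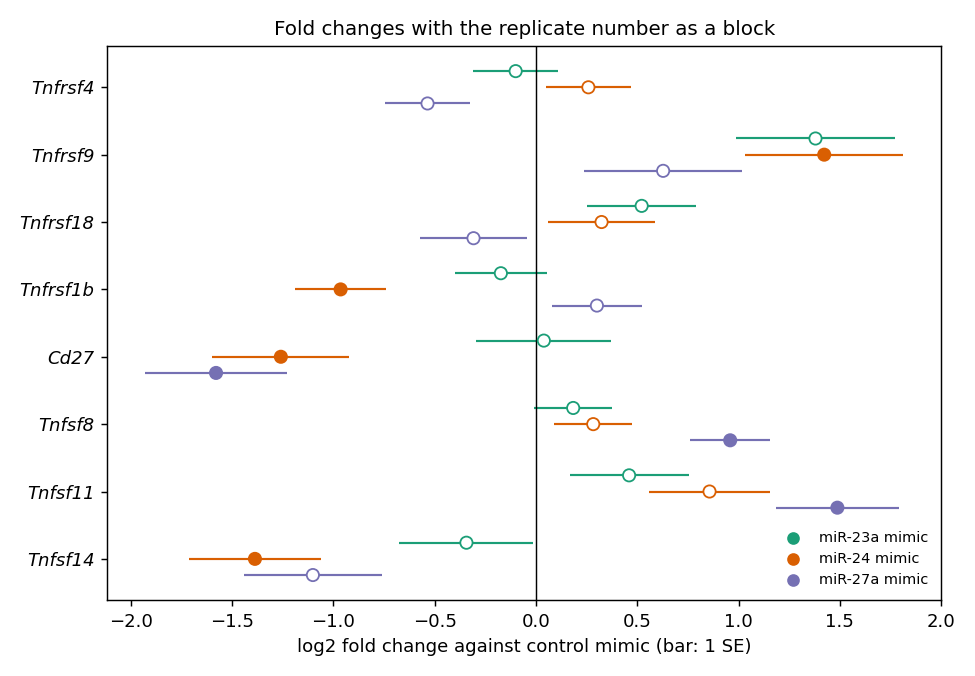
Log2 fold change of the 8 genes in the 3 comparisons with control, from edgeR with the replicate block. Bars are 1 SE, and filled points passed an adjusted p of 0.05. With miR-24 the filled points are Tnfrsf9 above 0 and Tnfrsf1b, Cd27 and Tnfsf14 below it, and with miR-27a they are Tnfsf8 and Tnfsf11 above 0 and Cd27 below it.

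Across the comparisons between mimics, 3 members passed for miR-24 against miR-27a (Tnfrsf4 higher with miR-24, Tnfrsf1b and Tnfsf8 lower), where 4.42% of tested genes passed, 1.8% higher and 2.62% lower, and 0.88% passed without the block. For miR-23a against miR-24, Tnfrsf1b and Cd27 were higher with miR-23a, where 5.38% passed, 2.73% higher and 2.65% lower, and without the block 1.1% of genes and 0 members did. For miR-23a against miR-27a, Cd27 was higher and Tnfsf8 and Tnfsf11 were lower with miR-23a, where 2.95% passed, 0.957% higher and 1.99% lower, and without the block 0.548% of genes and 0 members did.

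Separation of the libraries gives another view of the same values. They did not overlap for Tnfrsf1b and Tnfsf14 in miR-24 against control, where this held for 6.78% of tested genes, and for Tnfsf11 and Tnfsf14 in miR-27a against control, where it held for 6.47%. Between mimics they did not overlap for Tnfrsf1b in miR-24 against miR-27a (9.4% of tested genes) and for Tnfrsf1b and Tnfsf14 in miR-23a against miR-24 (8.54%). In miR-23a against miR-27a and against control, 0 members had groups that did not overlap (6.57% and 5.2% of tested genes). Taking same-numbered libraries in turn, 2 members went the same way in all 4 numbers for miR-23a against control (17.8% of tested genes), 4 for miR-24 (24.6%) and 3 for miR-27a (29.8%). Between mimics the counts were 5 for miR-24 against miR-27a (26.3%), 4 for miR-23a against miR-24 (28.9%) and 6 for miR-23a against miR-27a (23.5%).

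Every member call except that of Tnfrsf1b between miR-24 and miR-27a was lost in at least 1 fit that left out 1 library. The log2 differences kept their sign. Calls over all tested genes also fell, from 591 to 123 with miR-24 and from 398 to 51 with miR-27a, without control replicate 3. Of 8 fits that each left out 1 library, 5 lost the call of Tnfrsf1b with miR-24 and 3 that of Tnfsf14, and 3 lost those of Tnfsf8 and Tnfsf11 with miR-27a. Between miR-24 and miR-27a, 7 lost Tnfsf8 and 6 lost Tnfrsf4. Between miR-23a and miR-27a, 7 lost Tnfsf11, 6 lost Tnfsf8 and 2 lost Cd27. Between miR-23a and miR-24, 5 lost Tnfrsf1b and 5 lost Cd27. For miR-24 against control, 0 members passed without control replicate 3 or without miR-24 replicate 2, and 1 passed without control replicate 4, miR-24 replicate 3 or miR-24 replicate 4, while 2 passed without control replicate 2. For miR-27a against control, 0 passed without control replicate 3 or miR-27a replicate 3 and 1 without control replicate 4. For miR-24 against miR-27a, Tnfrsf1b alone passed without any one of miR-24 replicates 2 to 4 or miR-27a replicates 1 to 3. For miR-23a against miR-24, 0 passed without miR-23a replicate 1 or 3 or miR-24 replicate 2 or 3 and 1 without miR-23a replicate 4 or miR-24 replicate 1. For miR-23a against miR-27a, 0 passed without replicate 3 of either group and 1 without miR-23a replicate 1 or miR-27a replicate 1 or 2. For miR-23a against control 1 member passed without control replicate 2, where calls over all genes rose from 55 to 334. For any difference 8 members passed without that library, where calls over all genes rose from 1254 to 1780. Without control replicate 1 the counts against control were 0, 3 and 3 for miR-23a, miR-24 and miR-27a, with Tnfrsf9 the call that was lost.

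Replicate number and gene level moved together to very different degrees among the members. In the fit, the range over the 4 numbers was widest for Tnfrsf9 (2.88 on the log2 scale) and Cd27 (1.92), followed by Tnfrsf4 (1.39) and Tnfsf11 (1.02). It was narrow for Tnfrsf18 (0.70), Tnfsf8 (0.64), Tnfsf14 (0.58) and Tnfrsf1b (0.42). Tnfrsf9 and Cd27 went opposite ways with the number, Tnfrsf9 higher and Cd27 lower in libraries numbered 4 than in those numbered 1, in the fit. What a number stands for, and its part in these values, was not tested.

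Over the 15 libraries other than control replicate 1, the 3 stimulation-induced receptors varied together. The Pearson correlation of log2-CPM was 0.635 for Tnfrsf4 with Tnfrsf9, 0.663 for Tnfrsf4 with Tnfrsf18 and 0.681 for Tnfrsf9 with Tnfrsf18. Cd27 and Tnfsf11 varied in opposite directions (-0.728), as did Tnfsf11 and Tnfsf14 (-0.634) and Cd27 and Tnfrsf9 (-0.524). These are descriptions over libraries that share mimics, replicate numbers and depth.

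The genes whose pattern was most like that of each called member, out of 7490 with a mean log2-CPM of at least 3 and by Pearson correlation over the same 15 libraries, were as follows. For Tnfrsf4 they were Ech1 (0.913), Ly6a (0.893) and Prkx (0.882), and for Tnfrsf9 Etv6 (0.922), Npepps (0.916) and Eif1a (0.897). For Tnfrsf1b they included Snrk (0.918) and Tob2 (0.894), and for Cd27 Srpk1 (0.948), Rassf5 (0.937) and Foxo1 (0.914), a transcription factor of resting T cells. For the ligands they were Cs (0.921), Acap2 (0.906) and Adcy7 (0.899) with Tnfsf8, Ptpn9 (0.911), Nrn1 (0.859) and Pnp (0.855) with Tnfsf11, and Rrbp1 (0.838), Rest (0.831) and Zfp84 (0.825) with Tnfsf14.

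The binding partners of the 8 genes were measured in the same cells. Of 11 listed partners 8 were tested, and 3 rose with miR-24 against control, 0 fell, and 0 passed with miR-23a or miR-27a. Over all tested genes 2.32% rose and 2.25% fell with miR-24, and 0.425% and 3.07% passed with miR-23a and miR-27a. The 3 are ligands of members: Tnfsf9, which binds Tnfrsf9, and Tnf and Lta, which bind Tnfrsf1b. Tnfsf9 went from 18.7 to 31.3 CPM in the mean with miR-24 (log2 difference 1.31 ± 0.31, adjusted p = 0.0253 with the block, 0.265 without). Tnf went from 41.4 to 63.6 CPM (1.03 ± 0.28, adjusted p = 0.0443 and 0.419) and Lta from 61.8 to 164 CPM (1.35 ± 0.24, adjusted p = 0.00352 and 0.166). Control means here and below include control replicate 1, where 1 read is worth 16.3 CPM. The log2 differences come from the fit, so they need not match the means. Tnfrsf9 and its ligand Tnfsf9 thus both rose with miR-24, while Tnfrsf1b fell and its ligands rose. The receptor of Tnfsf8, Tnfrsf8, had log2 differences of 0.74 ± 0.38, 0.48 ± 0.36 and 0.01 ± 0.37 with miR-23a, miR-24 and miR-27a, and none passed. Tnfsf4, Cd70, Tnfrsf11a and Tnfrsf14 did not pass in any comparison with control either, and Tnfsf18, Tnfrsf11b and Ltbr were too low to test.

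Calls in the rest of the superfamily went in both directions. Of 23 other receptors 15 were tested, and 2 rose and 2 fell with miR-24, 1 rose and 2 fell with miR-27a and 0 passed with miR-23a, where 4.56%, 3.07% and 0.425% of all tested genes passed. With the 2 groups alone in the fit, 3 receptors passed with miR-24 and 5 with miR-27a. Such fits called 471 genes for miR-24 and 1883 for miR-27a, where the main fit called 591 and 398. The shares above therefore do not apply to those receptor counts. In the main fit, the median log2 differences of the tested receptors were 0.22, 0.17 and -0.09 for miR-23a, miR-24 and miR-27a. The medians were 0.04, 0.04 and 0.02 over all genes tested. Tnfrsf26, the most abundant of them and a neighbour and relative of the mouse TRAIL decoy receptors, fell with miR-24 from 364 CPM ± 43.7 to 147 ± 20.1 (SD, n = 4), by 1.29 ± 0.19 on the log2 scale (adjusted p = 0.00104 with the block, 0.00946 without). It also fell with miR-27a, by 1.05 ± 0.19 (adjusted p = 0.00658 and 0.065).

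Tnfrsf22 and Tnfrsf23, those decoy receptors in the mouse, were lower too. Tnfrsf22 fell by 1.37 ± 0.29 with miR-24 (adjusted p = 0.0118 and 0.0644) and Tnfrsf23 fell by 1.05 ± 0.24 with miR-27a (adjusted p = 0.0235 and 0.275). Their sequences resemble each other, so short reads may be split between them. Fas, the death receptor, rose by 0.98 ± 0.26 with miR-24, from 15.7 to 35.9 CPM (adjusted p = 0.037 and 0.241). Tnfrsf12a rose by 2.82 ± 0.75 from 0.37 CPM (adjusted p = 0.0387 and 0.189), with 0, 5, 11 and 0 reads in the control libraries, and Eda2r rose by 2.29 ± 0.42 with miR-27a from 3.06 to 18.5 CPM (adjusted p = 0.00643 and 0.268). Tnfrsf8 and Tnfrsf10b, the next most abundant receptors, did not pass against control.

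Of 15 other ligands 11 were tested, and beside Tnf, Lta and Tnfsf9, which rose, Tnfsf10 (TRAIL) fell with miR-24, from 171 to 107 CPM (log2 difference -0.64 ± 0.18, adjusted p = 0.0469 with the block, 0.226 without). No other ligand passed with miR-24, where 4.56% of all tested genes passed, and 0 of 11 passed with miR-23a or miR-27a. The ligands' median log2 differences were -0.46, 0.56 and 0.29 for miR-23a, miR-24 and miR-27a. Cd40lg, the ligand through which helper T cells stimulate B cells, was among those that did not pass.

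**Figure D4:**
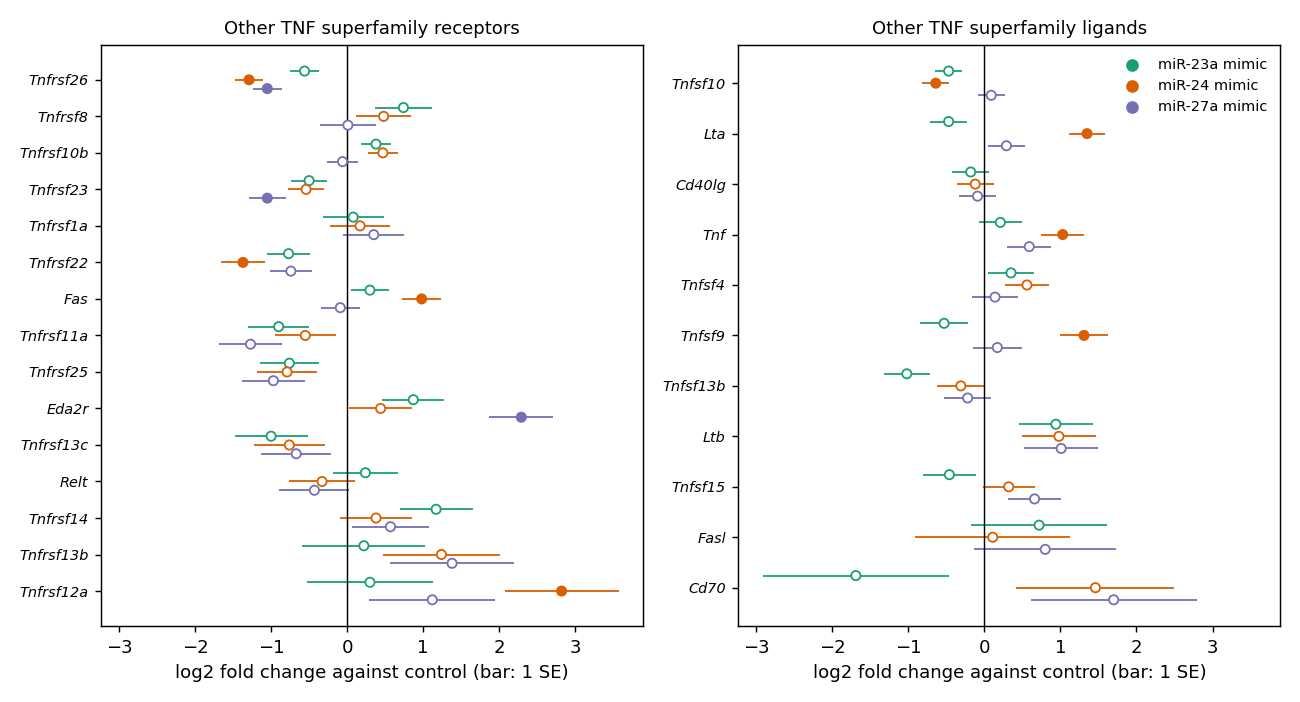
Log2 fold change against control of the other TNF superfamily receptors and ligands that were tested, ordered by abundance, from edgeR with the replicate block. Bars are 1 SE, colours are the mimics and filled points passed an adjusted p of 0.05. Tnfrsf26 is below 0 with all 3 mimics and filled for miR-24 and miR-27a, and Lta, Tnf and Tnfsf9 are filled above 0 with miR-24.

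The genes that carry the receptors' signal were called at about the share of all genes. Of 16 TRAF adaptors and proximal signalling genes, all tested, 1 passed with miR-24, where 4.56% of all tested genes did, and 0 with miR-23a or miR-27a (0.425% and 3.07%). The gene was Rbck1, a subunit of the linear ubiquitin ligase complex, which rose with miR-24 from 22.1 to 44.4 CPM (0.93 ± 0.26, adjusted p = 0.0457 with the block, 0.122 without). The medians of that list were 0.14, 0.13 and 0.07 on the log2 scale for miR-23a, miR-24 and miR-27a, and Cyld, Traf6 and Ripk1, its most abundant genes, did not pass. Of the 8 NF-kB subunits and inhibitors, 0 passed against control with any mimic, with medians of 0.32, 0.38 and 0.24.

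Other costimulatory and activation genes had calls in both directions. With miR-27a, 2 of 8 genes of the CD28 and immunoglobulin family and 3 of 9 activation markers passed, and with miR-24 1 and 2 did, where 3.07% and 4.56% of all tested genes passed. Of the first list, Cd28 fell by 1.02 ± 0.15 on the log2 scale with miR-27a (adjusted p = 0.00195 with the block, 0.0707 without) and Icos fell by 0.95 ± 0.22 (adjusted p = 0.0248 and 0.121), whereas Cd2 rose by 1.78 ± 0.23 with miR-24 (adjusted p = 0.000373 and 0.00946). Of 9 activation markers 1 rose and 2 fell with miR-27a, Egr2 by 1.79 ± 0.23 (adjusted p = 0.000877 and 0.026), Il2ra with a log2 difference of -0.98 ± 0.17 (adjusted p = 0.0045 and 0.235) and Cd69 with -0.83 ± 0.20 (adjusted p = 0.0281 and 0.244). With miR-24, Cd69 rose by 0.71 ± 0.20 (adjusted p = 0.0467 and 0.439) and Irf4 fell by 0.64 ± 0.18 (adjusted p = 0.045 and 0.154).

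Markers of cell types that could change the levels of these genes were measured beside them. The summed level of 6 regulatory T cell markers, cells in which Tnfrsf4, Tnfrsf18 and Tnfrsf1b are abundant, ranged from 553 to 917 CPM in control and from 331 to 693 with miR-24. The 6 did not move together with miR-24. Lrrc32, the most abundant, fell by 1.01 ± 0.26 (adjusted p = 0.0363 with the block, 0.336 without), and Foxp3 (-1.34 ± 0.44) and Ctla4 (-0.78 ± 0.26) were below 0 without passing. Ikzf2 (1.01 ± 0.29, adjusted p = 0.0545), Nrp1 (0.83 ± 0.33) and Gpr83 (0.29 ± 0.38) were above 0 without passing, and Gpr83 rose by 1.81 ± 0.39 with miR-27a (adjusted p = 0.0182 and 0.193). The part of regulatory T cells in the lower Tnfrsf1b with miR-24 was not tested. The summed level of 5 genes of class II antigen presentation ranged from 15.7 to 48.8 CPM in control. The 48.8 CPM is what 3 reads were worth in control replicate 1, so that end of the range rests on the floor. With miR-27a, the group in which Tnfsf8 and Tnfsf11 rose, the sum ranged from 23.2 to 114 CPM. Of the 5 genes, Cd74 rose by 1.43 ± 0.33 there (adjusted p = 0.025 with the block, 0.212 without). The other 4 did not pass: H2-Aa was at 1.02 ± 0.67, H2-Ab1 at 0.24 ± 0.5, H2-Eb1 at 1.93 ± 0.86 and Ciita at -0.96 ± 0.58. Their part in those changes was not tested. Of 6 markers that define CD4 T cells, 0 passed in miR-24 against control, where Tnfrsf1b fell and 4.56% of tested genes passed. Of these 6, 3 were above 0 there. Their sum was 1740 to 2360 CPM in control, 1590 to 1930 with miR-24, 2260 to 2600 with miR-27a and 1890 to 3210 with miR-23a. Between mimics, 3 were lower in miR-24 than in miR-27a, where 2.62% of tested genes were. Among them were Cd4 (-0.79 ± 0.19, adjusted p = 0.0205) and Lck (-1.05 ± 0.27, adjusted p = 0.0309). Cd4 and Lck were higher in miR-23a than in miR-24 (0.77 ± 0.19 and 0.96 ± 0.27, adjusted p = 0.02 and 0.041), where 2.73% of tested genes were. None of these passed without the block, and their part in the Tnfrsf1b differences was not tested. Of 4 NK cell markers only Eomes, which T cells also make, could be tested, and it was lower with miR-23a than with miR-24 (-2.26 ± 0.45, adjusted p = 0.00724) and than with miR-27a (-2.49 ± 0.47, adjusted p = 0.00647), comparisons in which Cd27 was higher with miR-23a. Neither passed without the block, and the other 3 NK markers were at 0 reads in every library of the control, miR-24 and miR-27a groups. In sum, 2 CD8 T cell markers did not pass 35.7 CPM in any library. B cell markers did not pass 18.4 CPM in sum, 6 dendritic cell markers lay between 14.2 and 38.4 CPM, 6 myeloid markers did not pass 22.2 CPM and 4 granulocyte and mast cell markers did not pass 1.44 CPM in any library. In bulk libraries, fewer cells of a type and less RNA per cell cannot be told apart.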

How the data were processed

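The authors deposited 1 table of raw read counts per library, with 23337 gene symbols and 5 summary lines. The summary lines held 64.6% to 77.6% of the reads and entered neither library sizes nor tests, and 0 columns went unused. Per the labels, 1 ng of RNA from 150000 to 800000 sorted cells was amplified and sequenced as single reads of 50 nt, with 4 libraries per lane. Bowtie2, TopHat, DESeq and the mm10 build are named, without versions, in the submitters' processing notes. The counter, annotation and strand setting are not given in the sources used here. Amplified reads without molecular identifiers are not independent molecules, so the read floor covers counting error only.

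The fits used edgeR 4.0.16 in R 4.3.3 (filterByExpr by group, TMM, robust quasi-likelihood test, two-sided) on all 16 libraries with group and replicate number as terms. The coefficient of biological variation was 0.29 with the block and 0.389 without. CPM was computed with TMM-scaled library sizes, adding a prior count of 2 for log2-CPM. Groups and replicate numbers come from the sample titles. The pairing by number was checked by removing group means and correlating same-numbered libraries over genes whose mean log2-CPM passed 5, and the lowest of 4 correlations was 0.198 for control with miR-27a, 0.35 for miR-23a with miR-24, 0.257 for miR-23a with miR-27a, -0.121 for control with miR-23a, 0.03 for control with miR-24 and -0.007 for miR-24 with miR-27a. The labels give the numbers but state no pairing. The check did not pass for control with miR-23a, control with miR-24 or miR-24 with miR-27a, so it does not establish one there.

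The 8 genes and the lists beside them were chosen with earlier results of these data known. Named were the 8 genes, every gene against control that passed among the other receptors, other ligands and TRAF genes with the 3 most abundant of each of these lists, up to 3 per further list by smallest p, and the 3 genes most like each called member, of which 1 is not reported here. Partner genes with no call, the class II genes, Cd8b1, Cd4, Lck, Eomes and regulatory T cell markers that did not pass were named after their values were seen. Alternatives were no block, DESeq2 size factors, no filter, DESeq2 1.42.0, limma 3.58.1 voom, the 2 groups alone, each library left out in turn and, added after seeing the data, group as the only term without control replicate 1. The fits were also run on counts simulated from the same model with the block, which cannot test whether the block is right.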

Additional observations from a re-analysis of the deposited data

Results flagged for a closer look

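Among 32 combinations of a gene and a group, 3 held 1 library far from the other 3 by Dixon's criterion, which chance meets in about 1 group in 20. In the miR-27a group, Tnfrsf18 was at 166 CPM in replicate 3 and at 109 to 117 CPM in the others, a gap of 0.845 of the group's range. In the miR-23a group, Cd27 was at 26.4 CPM in replicate 4 and at 65.7 to 73.4 CPM in the others, a gap of 0.837 of the range. In the control group, Tnfsf14 was at 16.3 CPM in replicate 1 and at 14.4 to 14.5 CPM in the others, a gap of 0.951 of the range, and that value is 1 read.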

How the results depend on the processing

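Without the replicate block, the members called in edgeR went from 0, 4 and 3 to 0, 0 and 0 for miR-23a, miR-24 and miR-27a against control. They went from 3 to 1 for miR-24 against miR-27a, from 2 and 3 to 0 for miR-23a against miR-24 and miR-27a, and from 5 to 1 for any difference. All genes called, in the same order, went from 55, 591, 398, 572, 697, 382 and 1254 to 17, 110, 22, 114, 142, 71 and 251 without the block. Other receptors called went from 4 to 1 (miR-24) and 3 to 0 (miR-27a), other ligands from 4 to 0 and TRAF genes from 1 to 0 (both miR-24). With group as the only term and control replicate 1 left out, an alternative added after seeing the data, members called were 0 for each comparison with control, 1 for miR-24 against miR-27a, 0 for the other comparisons between mimics and 1 for any difference, and genes called were 15, 106, 29, 138, 147, 70 and 244. Other receptors then gave 1 and 0, other ligands 0 and TRAF genes 0.

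DESeq2 with the block kept all 15 member calls and added 5, among them 1 for miR-23a against control, and called 364, 1029, 951, 999, 1060, 713 and 2323 genes and 1 TRAF gene for miR-27a. With limma voom 9 of the 15 calls held, members called were 0 for miR-24 against control and 0 for miR-23a against miR-24, genes called were 32 for miR-23a against control, 991 for miR-24 against miR-27a, 458 for miR-23a against miR-24 and 641 for any difference, and 2 receptors and 0 TRAF genes were called with miR-24. With the 2 groups alone, against control 1 member was called with miR-23a and 2 with miR-24, and members called were 1 for miR-24 against miR-27a and 1 for miR-23a against miR-24, genes called were 34 for miR-23a and 1883 for miR-27a against control and 148 between miR-24 and miR-27a, and 5 receptors, 1 ligand and 3 TRAF genes were called with miR-27a. DESeq2 size factors and no filter on low counts each kept 13 of the 15.

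Leaving out 1 library at a time, members called ranged from 0 to 1, 0 to 4, 0 to 4, 1 to 3, 0 to 2, 0 to 3 and 4 to 8 in the order above, and genes called from 12 to 334, 123 to 1490, 51 to 1010, 190 to 737, 262 to 796, 127 to 413 and 584 to 1780. Other receptors called ranged from 1 to 6 with miR-24 and 0 to 4 with miR-27a, other ligands from 1 to 4 and 0 to 1, and TRAF genes from 0 to 2 and 0 to 1, and from 0 to 1 with miR-23a.

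No called member value changed sign in any alternative. Of values that were not called, Cd27 with miR-23a against control was -0.07 without the block, -0.06 with limma, -0.17 with group alone and control replicate 1 out, and -0.18 to 0.29 without single libraries (-0.07 without control replicate 1 or 4). Without single libraries, values crossed 0 for Tnfrsf4 with miR-23a against control (-0.34 to 0.02), Tnfrsf18 with miR-27a against control (-0.49 to 0.05), Cd27 for miR-24 against miR-27a (-0.03 to 0.62) and, for miR-23a against miR-24, Tnfrsf9 (-0.31 to 0.38), Tnfrsf18 (-0.03 to 0.40) and Tnfsf8 (-0.20 to 0.01). The causes were not tested. Depth limits control replicate 1, where 4 of the 8 genes had 1 read.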
